A study of Mus musculus with 12 samples.

Results

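Semaphorins, plexins and neuropilins are ligands and receptors of one signalling family, and 31 of the 51826 genes in the tables belong to it. They were found by symbol: every gene named Sema3 to Sema7 with a letter, every plexin, and both neuropilins. This gave 7 class 3 semaphorins, 13 semaphorins of classes 4 to 7, 9 plexins and 2 neuropilins. The family was put forward with results of these data known, Sema3c being among the genes with the largest increases in untreated knockout cells. The knockout comparison without IFN is therefore given here as a description, with no test, and supports nothing. The knockout comparison with IFN uses 6 libraries that the first does not use, and it was tested, as were both comparisons of IFN. Both knockout comparisons use cells of the same genotypes, so the rise of Sema3c with IFN is not read as support. Each comparison of IFN, and the test of whether knockout altered the IFN response, shares untreated libraries with the knockout comparison without IFN.

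Class 3 semaphorins are secreted. Most of them bind a neuropilin, which holds the ligand, and an A-type plexin or plexin D1, which carries the signal into the cell by acting on small GTPases of the Rap and Ras families. Semaphorins of classes 4, 5 and 6 span the membrane and bind plexins directly, and semaphorin 7A is tethered by a lipid anchor and binds plexin C1 and integrin beta 1. The family was found through its steering of growing axons, and in tumours it is studied for effects on vessels, on the migration of tumour cells and on immune cells.

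The study measured poly-A RNA in MC38 cells, a mouse colorectal carcinoma line, in a design of 4 groups with 3 libraries each. Wild-type cells and Smarcd1 knockout cells, the latter made with a guide RNA, were each taken untreated and with IFN (interferon). Smarcd1 encodes a subunit of SWI/SNF chromatin remodelling complexes. The interferon, its dose and duration and the number of knockout clones were not stated in the labels used here, so a difference between genotypes may also be one between clones. Groups were taken from the titles. For 6 libraries the other labels exchange the group of untreated knockout cells with that of treated wild-type cells. Smarcd1 had 49.4 to 60.6 CPM (counts scaled to a common library size) in the 6 knockout libraries and 81.8 to 123 CPM in the 6 wild-type libraries, which goes with the titles, and a guide RNA need not remove the transcript. No label says that replicates came from separate cultures, so p-values measure the spread between these libraries, which may be technical. Libraries held 31752685 to 45721356 counts. Replicate 2 of the untreated wild-type cells had 4.82% of its counts on mitochondrial genes, against 1.52% to 2.99% in the other 11 libraries. Of 7 markers of colon epithelium, Epcam, Krt20 and Cdx2 had 0 counts in every library, and the summed level of the list was 1.85 to 2.90 TPM (abundance corrected for transcript length) in the 6 untreated libraries and 0.582 to 1.15 TPM in the 6 with IFN. Over all libraries Cdh1 had 1161 counts, Krt8 66, Vil1 33 and Krt18 10, so this sum is mostly Cdh1. Of 6 fibroblast markers, Dcn, Col1a2, Pdgfra and Pdgfrb were abundant, and the summed level was 265 to 273 TPM in untreated wild-type cells, 256 to 275 TPM with IFN, 212 to 215 TPM in untreated knockout cells and 145 to 148 TPM in knockout cells with IFN. Endothelial markers summed to at most 4.16 TPM, with Emcn at 0. With Snap25 at 0 the 4 neuronal markers summed to 0.341 to 0.688 TPM in wild-type and at most 0.0408 TPM in knockout libraries. Of the neuronal markers Rbfox3 had 120 counts over all libraries, Syt1 37 and Map2 6. The part of these marker levels in the results below was not tested. In bulk libraries fewer cells of a type and less RNA per cell cannot be told apart.

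The 4 class 3 semaphorin genes on chromosome 5 are shown first, because 3 of them had the largest increases of the family. Sema3d, Sema3a, Sema3e and Sema3c lie in that order on the plus strand within 5.35 Mb, from 12383385 to 17730268 (GRCm38). The 250 bases before the RefSeq start of each, on GRCm38.p6, are printed 5′ to 3′ with CpG dinucleotides in capitals.
Sema3d, chr5:12382916-12383165, plus strand: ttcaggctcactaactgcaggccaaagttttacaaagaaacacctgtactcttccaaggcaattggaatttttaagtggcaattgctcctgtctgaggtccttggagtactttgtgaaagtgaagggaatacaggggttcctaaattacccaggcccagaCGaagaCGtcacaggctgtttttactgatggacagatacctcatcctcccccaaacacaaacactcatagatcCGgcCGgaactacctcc
Sema3a, chr5:13396534-13396783, plus strand: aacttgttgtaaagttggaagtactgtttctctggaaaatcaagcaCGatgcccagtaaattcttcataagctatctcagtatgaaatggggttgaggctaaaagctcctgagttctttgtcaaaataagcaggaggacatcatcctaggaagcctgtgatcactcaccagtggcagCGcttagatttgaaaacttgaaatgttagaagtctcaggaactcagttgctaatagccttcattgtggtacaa
Sema3e, chr5:14025026-14025275, plus strand: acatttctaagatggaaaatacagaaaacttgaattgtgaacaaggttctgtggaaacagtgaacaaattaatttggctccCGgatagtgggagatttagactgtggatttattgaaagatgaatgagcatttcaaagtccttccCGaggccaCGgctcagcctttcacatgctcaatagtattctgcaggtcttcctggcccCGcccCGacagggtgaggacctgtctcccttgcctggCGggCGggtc
Sema3c, chr5:17574566-17574815, plus strand: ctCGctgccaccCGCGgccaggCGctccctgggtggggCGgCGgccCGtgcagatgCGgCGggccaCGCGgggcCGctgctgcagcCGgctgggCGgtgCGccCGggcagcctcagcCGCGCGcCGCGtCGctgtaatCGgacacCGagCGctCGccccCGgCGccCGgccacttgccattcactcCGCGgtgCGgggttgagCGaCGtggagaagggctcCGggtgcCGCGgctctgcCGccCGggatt
These 4 windows differ in sequence. That of Sema3c had 39 CpG and 78.4% G and C, and 98.4% of all 32851 promoter windows of this length had fewer CpG. Those of Sema3a, Sema3d and Sema3e had 2, 4 and 7 CpG, near or below the median of 6 over all windows. The RefSeq start of Sema3a lies inside the longer span that GENCODE gives the gene (13125414 to 13602565), so its window is not the start of the longest transcript. The window of Sema3c also lies inside its GENCODE span, which starts at 17574281. Of the 26 members with a window in the RefSeq table, an AP-1 motif (TGANTCA) was present in 3 members and a TEAD motif (GGAATG) in 3, against 7.82% and 14.4% of all genes. Motifs were searched on both strands, and a motif missing from these letters says nothing about the factor elsewhere.

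MC38 cells used a few members of each class at high levels and left others near 0. By TPM, which corrects for transcript length, 13 members had a mean over 10, 6 had a mean from 1 to 10 and 12 had a mean under 1. Neuropilin 2 (Nrp2) and plexin B2 (Plxnb2, a receptor of class 4 semaphorins) stood far above the rest, with means of 216 and 194 TPM over the 12 libraries, and their ranges of 165 to 267 and 175 to 227 TPM overlapped. Plexin A1 (Plxna1) followed at 57.8 TPM, then Sema4b, a transmembrane semaphorin, at 51.6 TPM, Sema3a at 27.8, Sema6b at 24.8 and Sema3b at 22.8 TPM. Neuropilin 1 (Nrp1), the main receptor for semaphorin 3A, had a mean of 3.53 TPM. Plexin C1, a receptor of semaphorin 7A, had 1.27 TPM. Before testing, genes with too few counts were removed, which kept 27 members among 16676 genes. The other 4 were Plxnb3 with 16 counts over the 12 libraries, Sema3f with 14, and Sema3e and Sema5b with 2 each, so a difference in them was not detectable at this depth.

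**Figure D1:**
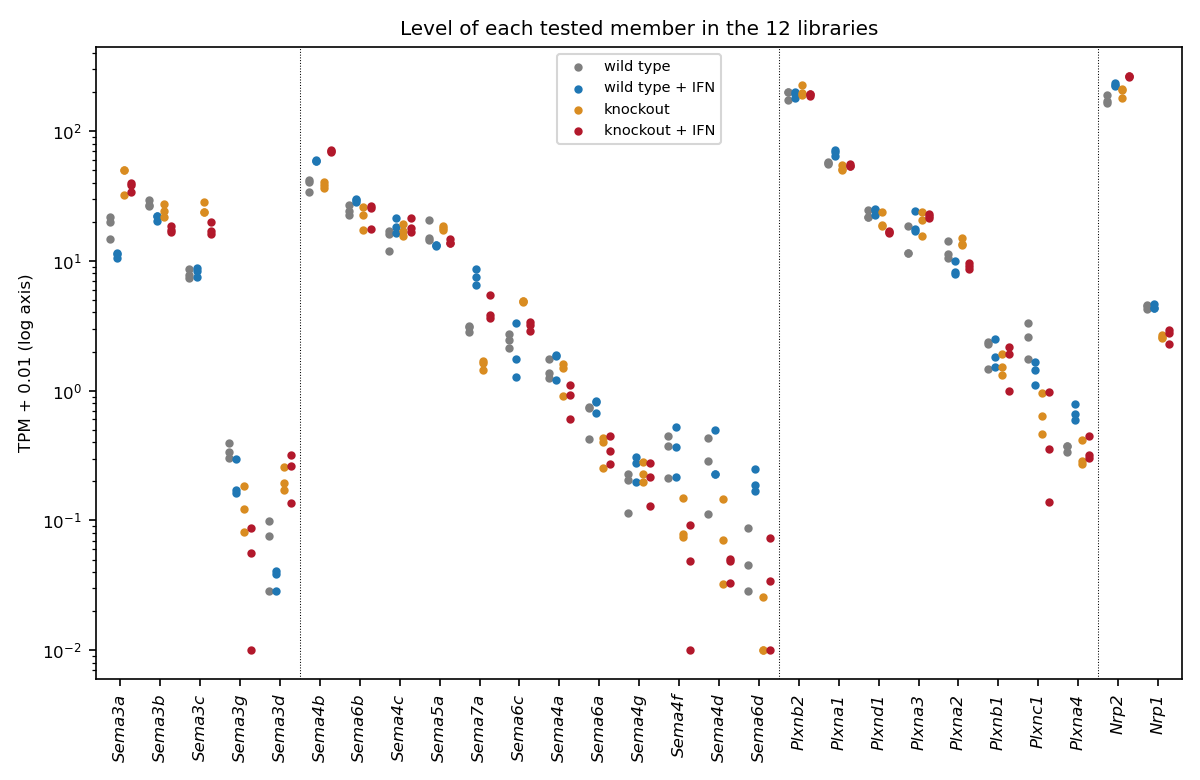
TPM of the 27 tested members in each of the 12 libraries, on a log axis after adding 0.01, with 1 point per library coloured by group. Dotted lines separate class 3 semaphorins, semaphorins of classes 4 to 7, plexins and neuropilins; Nrp2 and Plxnb2 lie between 165 and 267 TPM in every library.

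Added up by class, the knockout libraries held more secreted semaphorin transcript and the IFN libraries more membrane-bound semaphorin and neuropilin transcript. Class 3 semaphorins summed to a mean of 54.9 ± 4.69 TPM (SD over 3 libraries) in wild-type cells without IFN, 41.1 ± 1.40 with IFN, 94.0 ± 14.4 in untreated knockout cells and 72.7 ± 1.34 in knockout cells with IFN. All 6 knockout libraries (71.2 to 106 TPM) lay above all 6 wild-type libraries (40.3 to 58.5 TPM). Sema3b made up 47.6% to 53.5% of this sum in untreated wild-type libraries and 24.6% to 28.0% in untreated knockout libraries, where Sema3a made up 41.3% to 50.8%. Semaphorins of classes 4 to 7 summed to 103 ± 4.91 TPM in wild-type and 104 ± 7.22 TPM in knockout cells without IFN, and to 133 ± 1.66 and 135 ± 2.69 TPM with IFN. The neuropilin sum, of which Nrp2 made up 97.4% to 99.1% in every library, was 180 ± 13.3, 232 ± 5.98, 201 ± 17.7 and 266 ± 3.86 TPM in the same order as the groups above. The plexin sum ranged from 283 to 341 TPM. Its groups overlapped between genotypes without IFN, while with IFN the knockout libraries (289 to 299 TPM) lay below the wild-type libraries (302 to 328 TPM). These sums are set by the most abundant members and were not tested.

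With IFN present, knockout cells differed from wild-type cells in most of the tested members. In edgeR's quasi-likelihood test, with p-values adjusted over all 16676 genes by Benjamini-Hochberg and a threshold of 0.05, 16 of 27 tested members passed the test (59.3%), 4 higher and 12 lower, against 15.7% of all genes tested (5.11% higher and 10.6% lower). The count holds only members that passed the filter on low counts, and some passed it mainly through the group in which they were high. Among them were Sema3d in knockout cells and Sema3g, Sema4d, Sema4f and Sema6d in wild-type cells, and their calls are not read as support. Of the 21 members with a mean of at least 1 CPM, which leave these out, 11 passed (3 higher and 8 lower), against 16.8% of such genes. Both counts also hold Sema3c, whose rise is not read as support. The median log2 fold change was -0.35 over the 27 members and 0.00 over all genes. The libraries of the groups did not overlap in 21 of 27 members, against 41.1% of all genes. The median and this count include Sema3c and the scarce members named above, so both are given as a description. Without IFN, 9 of 27 members were past the same threshold, 5 higher and 4 lower, against 17% of all genes (6.43% higher and 10.6% lower); nothing is read from this count. Leaving out 2 untreated libraries, wild-type replicate 2 and knockout replicate 1, which earlier results of these data named as farthest from their groups, gave 20 members that passed with IFN and 13 were past the threshold without it. Shares of all genes in that fit are not given here, so nothing is read from the rise in these counts.

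**Figure D2:**
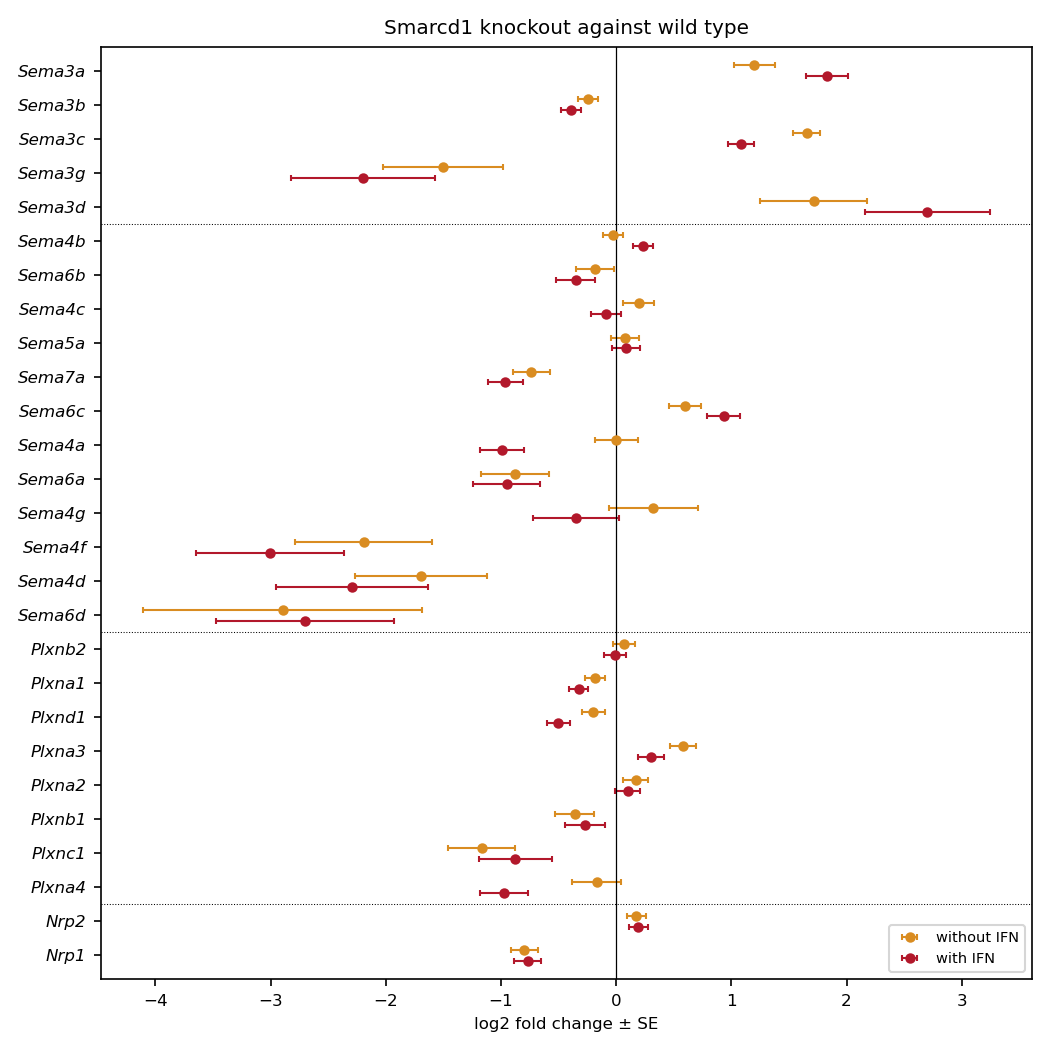
Log2 fold change ± SE of knockout against wild-type cells for the 27 tested members, without IFN (orange, a description) and with IFN (red), 3 libraries per group. Sema3a, Sema3c, Sema3d and Sema6c lie to the right of 0 in both comparisons, and Nrp1, Sema7a and Sema4f to the left; the wide bars belong to members with few counts, and the point of Sema6d without IFN rests on 2 counts in the knockout group.

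Among class 3 semaphorins, Sema3a, Sema3c and Sema3d were higher in knockout cells and Sema3b and Sema3g were lower. Sema3a encodes the ligand that collapses growth cones through neuropilin 1. Sema3a had 35.4, 27.6 and 38.3 CPM in the untreated wild-type libraries, 21.4, 17.5 and 21.3 CPM in those with IFN, 86.0, 90.7 and 55.9 CPM in the untreated knockout libraries and 64.1, 72.2 and 77.7 CPM in those with IFN. Every knockout library lay above every wild-type library, and replicate 3 of the untreated knockout cells was the lowest of the 6. With IFN the log2 fold change was 1.83 ± 0.18 (adjusted p = 1.92e-05), a 3.55-fold rise, and without IFN it was 1.20 ± 0.18. Sema3c encodes a secreted ligand that binds either neuropilin and plexin D1 and is known in heart and vessel development. Sema3c had 22.4, 20.2 and 19.2 CPM in the untreated wild-type libraries, 21.7, 23.6 and 21.01 CPM in those with IFN, 58.6, 73.7 and 61.8 CPM in the untreated knockout libraries and 52.1, 41.8 and 46.5 CPM in those with IFN. The groups did not overlap between genotypes, and the untreated knockout libraries were the highest. With IFN Sema3c rose 2.12-fold, a log2 fold change of 1.08 ± 0.11 (adjusted p = 3.30e-05). Without IFN it was 1.65 ± 0.12. Both rises with IFN were kept in every alternative but the grouping by the characteristics. The rise of Sema3c is not read as support, because the family was put forward with its rise in untreated knockout cells known.

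Sema3d, another secreted ligand of neuropilin 1, lay near the lower limit of detection. Sema3d had 2, 10 and 7 counts in the untreated wild-type libraries, 3, 3 and 2 in those with IFN, 21, 23 and 36 in the untreated knockout libraries and 20, 30 and 16 in those with IFN. Every knockout library had more counts than any wild-type library. The log2 fold change with IFN was 2.70 ± 0.54 (adjusted p = 0.00450), from 8 counts over the wild-type group and 66 over the knockout group, and without IFN it was 1.71 ± 0.47. Sema3g, a secreted ligand known to bind neuropilin 2, was also scarce. Sema3g had 26, 24 and 28 counts in the untreated wild-type libraries, 21, 12 and 12 in those with IFN, 16, 10 and 8 in the untreated knockout libraries and 8, 0 and 4 in those with IFN. The knockout libraries were the lower ones at either treatment, and the log2 fold change with IFN was -2.20 ± 0.62 (adjusted p = 0.0311). That call was lost at an adjusted p from 0.0575 to 0.118 when replicate 1 or 2 of the wild-type or replicate 2 or 3 of the knockout cells with IFN was left out. Sema3d passed the filter on low counts mainly through knockout libraries and Sema3g mainly through wild-type libraries, so neither call is read as support. Sema3b, a ligand studied as a tumour suppressor, was more abundant than either. Sema3b had 37.0, 33.9 and 34.9 CPM in the untreated wild-type libraries, 26.2, 27.2 and 28.9 CPM in those with IFN, 31.6, 30.3 and 27.3 CPM in the untreated knockout libraries and 20.5, 22.3 and 20.02 CPM in those with IFN. Knockout libraries lay below wild-type libraries of the same treatment. With IFN the log2 fold change between genotypes was -0.39 ± 0.09 (adjusted p = 0.00979); the call was lost (adjusted p = 0.0514) without replicate 3 of the knockout cells with IFN, and on TPM with limma (adjusted p 0.0745 to 0.127). Its value without IFN was -0.25 ± 0.09.

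IFN lowered Sema3b in both genotypes and other class 3 members in one. Sema3b fell with IFN in knockout cells, by a log2 fold change of -0.51 ± 0.09 (adjusted p = 0.00224), a call kept in every alternative. In wild-type cells it was -0.36 ± 0.09 (adjusted p = 0.0231), a call lost at an adjusted p from 0.0588 to 0.0851 without replicate 1 or 3 of the untreated or replicate 1 or 2 of the treated wild-type cells. Sema3a fell with IFN in wild-type cells, with -0.75 ± 0.18 (adjusted p = 0.0206), and the call was lost at an adjusted p from 0.0609 to 0.0920 without replicate 1 or 3 of the untreated or replicate 2 of the treated cells. In knockout cells Sema3a gave -0.12 ± 0.17 (adjusted p = 0.710). Sema3c fell with IFN in knockout cells, with -0.47 ± 0.11 (adjusted p = 0.0158), and the call was lost at an adjusted p from 0.0608 to 0.0835 without replicate 2 of the untreated or replicate 2 or 3 of the treated knockout cells. In wild-type cells Sema3c gave 0.10 ± 0.11 (adjusted p = 0.638). The baseline of its fall is the untreated knockout group, in which Sema3c was known to be high, so the fall is not read as support. The fall of Sema3a with IFN and its rise in knockout cells with IFN share the 3 wild-type libraries with IFN.

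**Figure D3:**
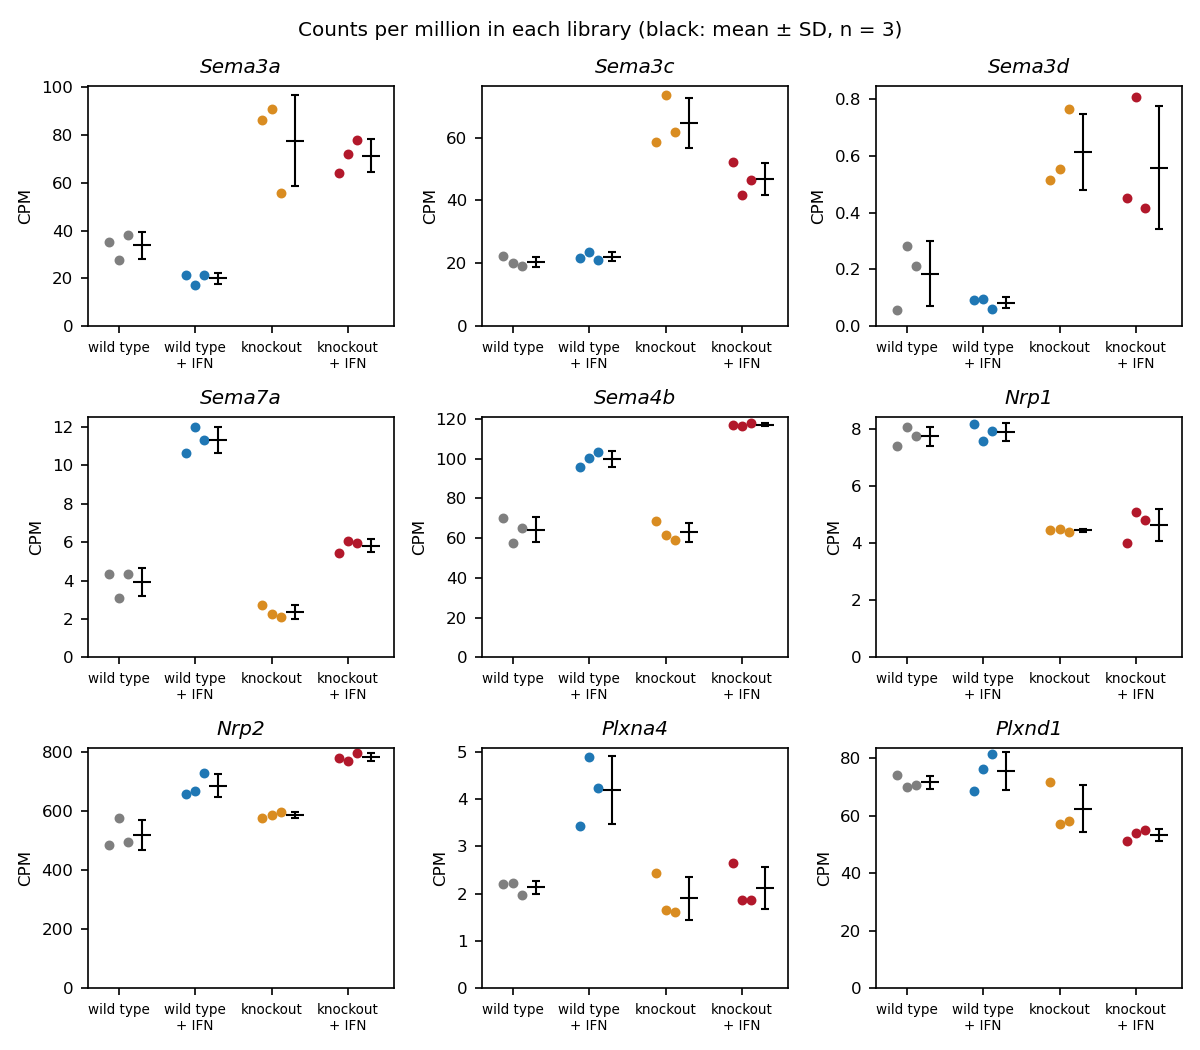
CPM of 9 members in each library, grouped by genotype and IFN, with the mean ± SD of 3 libraries in black and each axis starting at 0. Sema3a, Sema3c and Sema3d are high in both knockout groups, Nrp1 is low in both, Sema7a and Sema4b are high in both IFN groups, and Plxna4 is high in wild-type cells with IFN.

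Among the membrane-bound semaphorins, Sema4b and Sema7a responded to IFN in both genotypes. Sema7a encodes the lipid-anchored semaphorin, which is known to act on monocytes and T cells through integrins. Sema7a had 4.35, 3.07 and 4.36 CPM in the untreated wild-type libraries, 10.7, 12.03 and 11.3 CPM in those with IFN, 2.75, 2.24 and 2.08 CPM in the untreated knockout libraries and 5.41, 6.08 and 5.97 CPM in those with IFN. Each treated group lay above its untreated group, and each knockout group lay below the wild-type group of the same treatment. IFN raised Sema7a 2.89-fold in wild-type cells, with 1.53 ± 0.16 (adjusted p = 6.36e-05) on the log2 scale. In knockout cells it rose 2.47-fold, with 1.30 ± 0.16 (adjusted p = 0.000146). With IFN the knockout cells had 1.95-fold less than wild-type cells, with -0.96 ± 0.15 (adjusted p = 0.000915) on that scale, and without IFN the difference was -0.74 ± 0.16. The IFN effects in the 2 genotypes differed by -0.23 ± 0.22 on the log2 scale (95% interval -0.74 to 0.29, adjusted p = 0.710). The 3 tested calls of Sema7a were kept in every alternative but the grouping by the characteristics.

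Sema4b encodes a transmembrane semaphorin and was the most abundant of its classes. Sema4b had 70.2, 57.4 and 65.2 CPM in the untreated wild-type libraries, 95.6, 100.4 and 104 CPM in those with IFN, 68.4, 61.4 and 59.1 CPM in the untreated knockout libraries and 117, 117 and 118 CPM in those with IFN. The treated libraries lay above all untreated ones, and the untreated groups overlapped. IFN raised Sema4b 1.55-fold in wild-type cells, with 0.64 ± 0.09 (adjusted p = 0.000657), and 1.86-fold in knockout cells, with 0.90 ± 0.09 (adjusted p = 2.25e-05). The difference between these IFN effects was 0.26 ± 0.12 (adjusted p = 0.455). It passed the test, at 0.40 on the log2 scale (adjusted p = 0.0421), only when wild-type replicate 2 and knockout replicate 1, both untreated, were left out. Knockout cells differed from wild-type cells by -0.03 ± 0.09 without IFN and by 0.23 ± 0.09 (adjusted p = 0.0992) with it.

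Sema6c, a transmembrane semaphorin, was the only member of classes 4 to 7 that passed the test as higher in knockout cells. Sema6c had 3.10, 3.10 and 3.08 CPM in the untreated wild-type libraries, 2.14, 2.49 and 2.13 CPM in those with IFN, 5.43, 4.31 and 4.33 CPM in the untreated knockout libraries and 4.63, 4.15 and 4.13 CPM in those with IFN. All knockout libraries lay above all wild-type libraries. The log2 fold change was 0.93 ± 0.14 (adjusted p = 0.000601) with IFN and 0.60 ± 0.14 without it. On the deposited TPM with limma the call with IFN was lost, with a log2 fold change of 0.46 to 0.66 (adjusted p 0.138 to 0.256).

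The other 6 members of classes 4 to 7 that passed with IFN were lower in knockout cells, Sema7a among them. Sema4a encodes a semaphorin known to costimulate T cells. Sema4a had 1.33, 1.46 and 1.77 CPM in the untreated wild-type libraries, 1.70, 2.20 and 2.19 CPM in those with IFN, 1.65, 1.59 and 1.34 CPM in the untreated knockout libraries and 1.11, 0.996 and 0.961 CPM in those with IFN. The untreated groups overlapped, and the knockout libraries with IFN were the lowest. Its log2 fold change was -0.99 ± 0.19 (adjusted p = 0.00315) with IFN and 0.00 ± 0.19 without it, and on TPM with limma the call was lost at an adjusted p from 0.0701 to 0.1495. Sema6a encodes a transmembrane ligand of plexins A2 and A4. Sema6a had 1.10, 2.14 and 2.14 CPM in the untreated wild-type libraries, 1.58, 2.55 and 2.40 CPM in those with IFN, 1.25, 0.795 and 0.870 CPM in the untreated knockout libraries and 1.15, 1.29 and 0.935 CPM in those with IFN. The groups overlapped without IFN and did not with IFN. Its log2 fold change with IFN was -0.95 ± 0.29 (adjusted p = 0.0445), and this call was lost in 8 of 12 fits that left out 1 library (adjusted p 0.0520 to 0.1498), with no filter on low counts (adjusted p = 0.0665) and with the replicate number as a block (adjusted p = 0.0682). The 4 libraries whose removal kept it were wild-type untreated replicates 1 and 2, wild-type IFN replicate 1 and knockout untreated replicate 1.

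Sema4f, Sema4d and Sema6d were scarce and lower in knockout cells with IFN. Sema4f encodes a transmembrane semaphorin. Sema4f had 26, 15 and 29 counts in the untreated wild-type libraries, 34, 13 and 26 in those with IFN, 6, 7 and 6 in the untreated knockout libraries and 8, 3 and 0 in those with IFN. Every wild-type library had more counts than any knockout library, and the log2 fold change was -3.01 ± 0.64 (adjusted p = 0.00662) with IFN and -2.19 ± 0.59 without it. Sema4d encodes CD100, the ligand of plexin B1 and, on lymphocytes, of CD72. Sema4d had 27, 22 and 8 counts in the untreated wild-type libraries, 16, 8 and 17 in those with IFN, 6, 2 and 14 in the untreated knockout libraries and 4, 4 and 2 in those with IFN. The libraries overlapped without IFN and did not with IFN, where the log2 fold change was -2.29 ± 0.66 (adjusted p = 0.0334). That call was lost at an adjusted p from 0.0752 to 0.117 without replicate 1 or 3 of the wild-type or any 1 of the 3 knockout libraries with IFN, and also with the replicate number as a block (adjusted p = 0.0548). Sema6d encodes a transmembrane ligand of plexin A1. Sema6d had 2, 4 and 8 counts in the untreated wild-type libraries, 16, 18 and 27 in those with IFN, 0, 2 and 0 in the untreated knockout libraries and 0, 8 and 3 in those with IFN. The highest counts were in wild-type cells with IFN. Its log2 fold change with IFN was -2.70 ± 0.77 (adjusted p = 0.0321); the call was lost at an adjusted p from 0.0600 to 0.114 without any 1 of the wild-type libraries or replicate 1 or 3 of the knockout libraries with IFN. Sema6d passed the filter on low counts only through wild-type cells with IFN, an arm of this comparison, and with no filter the call was lost (adjusted p = 0.0534), so it is not read as support. Sema4f and Sema4d passed that filter mainly through wild-type libraries, and their calls are not read as support either. The untreated knockout libraries held 2 counts of Sema6d in all, so no fold is given for that group.

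Of the receptors, Nrp1 was lower in knockout cells and Nrp2 was higher with IFN. Neuropilins are single-pass co-receptors for class 3 semaphorins and for vascular endothelial growth factors. Nrp1 had 7.39, 8.05 and 7.75 CPM in the untreated wild-type libraries, 8.18, 7.56 and 7.93 CPM in those with IFN, 4.47, 4.48 and 4.37 CPM in the untreated knockout libraries and 4.02, 5.09 and 4.80 CPM in those with IFN. All knockout libraries lay below all wild-type libraries, while the groups with and without IFN overlapped. Nrp1 was 1.70-fold lower in knockout cells with IFN, a log2 fold change of -0.77 ± 0.12 (adjusted p = 0.000603), which was kept in every alternative but the grouping by the characteristics. Without IFN it was -0.80 ± 0.12. For IFN, the log2 fold change of Nrp1 was 0.03 ± 0.11 (adjusted p = 0.912) in wild-type cells (95% interval -0.24 to 0.29) and 0.06 ± 0.12 (adjusted p = 0.791) in knockout cells (-0.21 to 0.33).

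Nrp2 had 484, 577 and 496 CPM in the untreated wild-type libraries, 656, 668 and 728 CPM in those with IFN, 575, 586 and 596 CPM in the untreated knockout libraries and 778, 769.8 and 796 CPM in those with IFN. Each treated group lay above its untreated group. IFN raised Nrp2 1.32-fold in wild-type cells, with 0.40 ± 0.08 (adjusted p = 0.00836), a call lost (adjusted p = 0.0885) when only the 6 wild-type libraries were fitted, and 1.33-fold in knockout cells, with 0.42 ± 0.08 (adjusted p = 0.00452). Between genotypes Nrp2 gave 0.17 ± 0.08 without IFN and 0.19 ± 0.08 (adjusted p = 0.140) with it. The ratio of Nrp2 to Nrp1 by TPM was 38.1 to 41.8 in untreated wild-type libraries, 47.8 to 54.2 with IFN, 70.0 to 81.5 in untreated knockout libraries and 89.2 to 116 in knockout libraries with IFN. These 4 ranges did not overlap.

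Of 8 tested plexins, 3 passed the test between genotypes with IFN, and all 3 were lower in knockout cells, where 10.6% of all genes were lower. Plxnd1, the plexin that semaphorin 3E binds without a neuropilin, is known from blood vessels. Plxnd1 had 74.4, 69.9 and 70.6 CPM in the untreated wild-type libraries, 68.8, 76.4 and 81.7 CPM in those with IFN, 71.9, 57.3 and 58.2 CPM in the untreated knockout libraries and 51.2, 54.0 and 55.1 CPM in those with IFN. With IFN the knockout libraries lay below all others, and without IFN the groups overlapped. Its log2 fold change was -0.50 ± 0.10 (adjusted p = 0.00412) with IFN and -0.20 ± 0.10 without it. Plxna4 encodes a partner of neuropilin 1 in the response to semaphorin 3A. Plxna4 had 2.20, 2.22 and 1.98 CPM in the untreated wild-type libraries, 3.44, 4.88 and 4.24 CPM in those with IFN, 2.43, 1.66 and 1.61 CPM in the untreated knockout libraries and 2.64, 1.86 and 1.87 CPM in those with IFN. The wild-type libraries with IFN lay above the other 9. The log2 fold change of knockout was -0.98 ± 0.21 (adjusted p = 0.00690) with IFN and -0.17 ± 0.21 without it. IFN gave 0.97 ± 0.21 (adjusted p = 0.0126) in wild-type cells, a call lost at an adjusted p from 0.0516 to 0.0623 without replicate 3 of the untreated or replicate 2 of the treated cells, and 0.16 ± 0.21 (adjusted p = 0.678) in knockout cells. The difference between these IFN effects was -0.81 ± 0.30 (adjusted p = 0.348).

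Plxna1 encodes the most abundant A-type plexin here. Plxna1 had 246, 238 and 240.2 CPM in the untreated wild-type libraries, 267, 287 and 320.5 CPM in those with IFN, 232, 204 and 202 CPM in the untreated knockout libraries and 228, 227 and 243 CPM in those with IFN. Knockout libraries lay below wild-type libraries of the same treatment. With IFN the log2 fold change was -0.32 ± 0.08 (adjusted p = 0.0191), and the call was lost at an adjusted p from 0.0527 to 0.0832 without replicate 2 or 3 of the wild-type or replicate 1 or 2 of the knockout cells with IFN, and also with no filter on low counts (adjusted p = 0.0695). An annotated gene on the opposite strand overlaps 10.7% of the exonic bases of Plxna1, and the labels do not state the strand setting of the counting. Plxna2 encodes a receptor of semaphorins 6A and 6B. Plxna2 had 56.0, 70.3 and 54.1 CPM in the untreated wild-type libraries, 40.0, 41.1 and 47.2 CPM in those with IFN, 70.0, 65.6 and 67.3 CPM in the untreated knockout libraries and 47.4, 43.0 and 47.2 CPM in those with IFN. Treated libraries lay below untreated ones in both genotypes. IFN lowered Plxna2 in knockout cells, with -0.56 ± 0.11 (adjusted p = 0.00405), and in wild-type cells, with -0.49 ± 0.11 (adjusted p = 0.0129). The second call was lost at an adjusted p from 0.0530 to 0.0622 without replicate 1 or 2 of the treated wild-type cells. That call was also lost on TPM with limma (adjusted p 0.0530 to 0.0979) and when only the wild-type libraries were fitted (adjusted p = 0.0884). Between genotypes it gave 0.10 ± 0.11 (adjusted p = 0.601) with IFN.

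Plxna3 encodes the plexin that partners neuropilin 2 in the response to semaphorin 3F. Plxna3 had 29.8, 25.8 and 26.5 CPM in the untreated wild-type libraries, 39.2, 39.2 and 40.4 CPM in those with IFN, 48.7, 34.7 and 39.1 CPM in the untreated knockout libraries and 46.8, 49.1 and 50.4 CPM in those with IFN. The untreated wild-type libraries were the lowest. IFN raised Plxna3 in wild-type cells, with 0.53 ± 0.11 (adjusted p = 0.0114), a call lost on TPM with limma (adjusted p 0.168 to 0.289). In knockout cells it gave 0.26 ± 0.11 (adjusted p = 0.170). Knockout cells were higher by 0.58 ± 0.11 without IFN and gave 0.30 ± 0.11 (adjusted p = 0.0991) with it. Plxnc1, a receptor of semaphorin 7A, was low. Plxnc1 had 2.32, 3.32 and 2.41 CPM in the untreated wild-type libraries, 1.55, 1.12 and 1.53 CPM in those with IFN, 0.810, 1.45 and 1.32 CPM in the untreated knockout libraries and 0.474, 1.08 and 0.753 CPM in those with IFN. Knockout libraries lay below wild-type libraries of the same treatment, with a log2 fold change of -1.17 ± 0.29 without IFN and -0.88 ± 0.31 (adjusted p = 0.0833) with it. Plxnb2 showed no such separation. Plxnb2 had 587, 525 and 585 CPM in the untreated wild-type libraries, 538, 573 and 615 CPM in those with IFN, 676, 556 and 547 CPM in the untreated knockout libraries and 548, 577 and 586 CPM in those with IFN. All 4 groups overlapped, and its log2 fold changes were 0.07 ± 0.09 for knockout without IFN and -0.01 ± 0.09 (adjusted p = 0.951) with it (95% interval -0.23 to 0.21).

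IFN changed 8 tested members in wild-type and 6 in knockout cells, and 5 of them moved in the same direction in both genotypes. In wild-type cells 8 of 27 tested members passed the test (29.6%), 5 higher and 3 lower, against 9.38% of all genes (4.66% higher and 4.72% lower). That count was 4 without replicate 2 of the treated and 5 without replicate 3 of the untreated wild-type cells. In knockout cells 6 passed (22.2%), 3 higher and 3 lower, against 12.8% (5.47% higher and 7.28% lower). Sema4b, Sema7a and Nrp2 rose and Plxna2 and Sema3b fell in both, and these 5 are 18.5% of the tested members, against 5.38% of all genes that passed in the same direction in both. In wild-type cells the calls of Nrp2, Plxna2 and Sema3b were not kept in every alternative. The 2 IFN comparisons share no libraries, but each shares a treated group with the knockout comparison with IFN and an untreated group with the one without IFN. The 6 in knockout cells include Sema3c, whose fall is not read as support. Without wild-type replicate 2 and knockout replicate 1, both untreated, the counts were 10 and 8. Shares of all genes in that fit are not given here, so nothing is read from the higher counts.

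**Figure D4:**
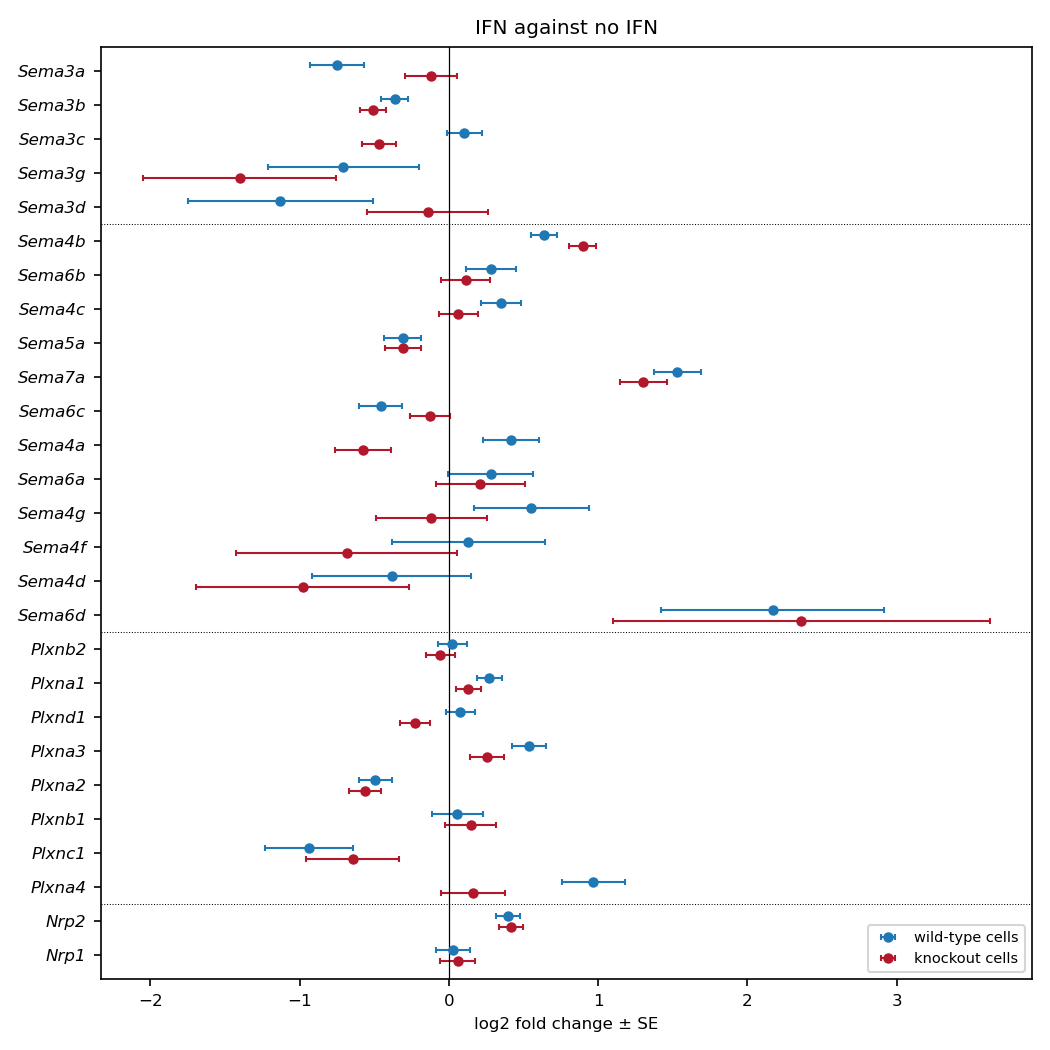
Log2 fold change ± SE of IFN against no IFN for the 27 tested members, in wild-type cells (blue) and in knockout cells (red), 3 libraries per group. Sema7a, Sema4b and Nrp2 lie to the right of 0 and Plxna2 and Sema3b to the left in both genotypes; Plxna4 and Sema4a lie apart between genotypes, a difference that did not pass the test.

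Whether the knockout altered the response to IFN was tested by the interaction of both factors. With edgeR 0 of 27 members passed, against 1.02% of all genes, and DESeq2 also called 0. An unadjusted p under 0.05 was found with edgeR for 4 members. The share of all genes under that unadjusted p is not given here, so nothing is read from the count. These 4 were Sema4a with -0.99 ± 0.26 (adjusted p = 0.142), Sema3c with -0.57 ± 0.16 (adjusted p = 0.169), Plxna4 with -0.81 ± 0.30 (adjusted p = 0.348) and Sema3a with 0.63 ± 0.25 (adjusted p = 0.381). A positive value means a higher IFN effect in knockout cells. Their 95% intervals were -1.60 to -0.38, -0.94 to -0.20, -1.49 to -0.12 and 0.05 to 1.20 before any adjustment for the number of genes. The interaction also uses the untreated knockout libraries, in which Sema3c was known to be high, so nothing is read from the value of Sema3c.

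Besides Plxnb2, the remaining 5 tested members, Sema4c, Sema4g, Sema5a, Sema6b and Plxnb1, passed in no comparison. Sema5a, a transmembrane semaphorin with thrombospondin repeats, gave -0.31 ± 0.12 (adjusted p = 0.142) for IFN in wild-type cells and -0.30 ± 0.12 (adjusted p = 0.129) in knockout cells. Sema6b, a transmembrane semaphorin, gave -0.35 ± 0.17 (adjusted p = 0.190) for knockout with IFN. Sema4c, a ligand of plexin B2, gave 0.35 ± 0.13 (adjusted p = 0.135) for IFN in wild-type cells and -0.09 ± 0.13 (adjusted p = 0.728) for knockout with IFN. Plxnb1, the receptor of semaphorin 4D, gave -0.27 ± 0.17 (adjusted p = 0.342) for knockout with IFN and had 4.03 to 7.39 CPM. Sema4g had 0.232 to 0.682 CPM and gave -0.35 ± 0.38 (adjusted p = 0.608) for knockout with IFN.

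Of the genes that work with the family, those named with their values were chosen mainly by the smallest p. Effectors that passed outside this choice are counted but not named. Of 7 tested co-receptors and other receptors, none rose and 2 fell in knockout cells with IFN, Flt1 and L1cam, where 10.6% of all genes fell; with so few genes nothing is read from the count. Nrcam gave -0.46 ± 0.19 (adjusted p = 0.123) and Erbb2 0.18 ± 0.11 (adjusted p = 0.333). Flt1, a receptor of vascular endothelial growth factors that can pair with neuropilins, gave -1.74 ± 0.21 (adjusted p = 0.000102), from a mean of 6.73 ± 0.883 CPM (SD, n = 3) to 2.01 ± 0.382 CPM. L1cam, an adhesion molecule that binds neuropilin 1, gave -0.83 ± 0.12 (adjusted p = 0.000465). Of 6 tested growth factors that bind neuropilins, Vegfc fell with -0.92 ± 0.13 (adjusted p = 0.000337), Pgf fell with -2.24 ± 0.36 (adjusted p = 0.00101) and Vegfd rose with 0.79 ± 0.14 (adjusted p = 0.00238). Among all genes 10.6% fell and 5.11% rose, and with so few growth factors nothing is read from their number. Vegfb, which had 40.6 ± 6.30 CPM in wild-type and 44.2 ± 0.668 CPM in knockout cells with IFN, gave 0.12 ± 0.10 (adjusted p = 0.478). The median log2 fold change was -0.13 over the receptors and -0.05 over the growth factors, against 0.00 over all genes.

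Of 31 tested effectors, which relay plexin signals to actin and microtubules, 3 rose and 3 fell in knockout cells with IFN, with a median of 0.02; that is near the 15.7% of all genes that passed, so the count is not a result about the effectors. Mical1, an enzyme that oxidises actin, fell with -1.48 ± 0.13 (adjusted p = 5.83e-06), and 14.97% of its exonic bases overlap Smpd2 on the opposite strand. Rnd1, a small GTPase that binds plexins, fell with -0.84 ± 0.12 (adjusted p = 0.000311). Farp1, an exchange factor for small GTPases, rose with 0.51 ± 0.09 (adjusted p = 0.00133). Pak1, a kinase downstream of Rac, rose with 0.54 ± 0.10 (adjusted p = 0.00260). Dpysl3, of the collapsin response mediators that carry the semaphorin 3A signal to microtubules, had 199 ± 13.5 CPM in wild-type and 249.6 ± 5.44 CPM in knockout cells with IFN, and rose with 0.32 ± 0.07 (adjusted p = 0.00672). On TPM with limma that last call was lost at an adjusted p from 0.0701 to 0.136. None of the 4 proteases passed; Adam10, the one with the smallest p, gave -0.22 ± 0.10 (adjusted p = 0.169).

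In the IFN comparisons, 2 receptors of 7 fell and none rose in each genotype, where 4.72% of all genes fell in wild-type and 7.28% in knockout cells. Met, the receptor of hepatocyte growth factor and a partner of B-type plexins, fell with -0.86 ± 0.18 (adjusted p = 0.00582) in knockout cells. In wild-type cells it gave -0.81 ± 0.18 (adjusted p = 0.0120), a call lost (adjusted p = 0.0503) without replicate 2 of the treated cells. L1cam fell with -0.61 ± 0.12 (adjusted p = 0.00696) and -1.13 ± 0.12 (adjusted p = 4.86e-05). Furin, the protease that processes class 3 semaphorins, was the one protease of 4 that passed, and it rose with 0.79 ± 0.12 (adjusted p = 0.00120) in wild-type and 0.83 ± 0.12 (adjusted p = 0.000505) in knockout cells. Itgb1, a receptor of semaphorin 7A, gave 0.03 ± 0.09 (adjusted p = 0.883) and 0.23 ± 0.09 (adjusted p = 0.109). Of 31 effectors, 2 rose and 3 fell in wild-type cells and 2 rose and 5 fell in knockout cells, against 9.38% and 12.8% of all genes that passed in either direction. Dpysl3 fell with -0.59 ± 0.07 (adjusted p = 0.000184) and -0.90 ± 0.07 (adjusted p = 2.43e-06). Rnd1 rose in wild-type cells with 0.76 ± 0.12 (adjusted p = 0.00136), and in knockout cells Rap1b rose with 0.63 ± 0.09 (adjusted p = 0.000623) and Fes fell with -0.48 ± 0.10 (adjusted p = 0.00666). Of the 6 growth factors, Vegfc rose with 0.72 ± 0.13 (adjusted p = 0.00405) and Vegfd fell with -0.65 ± 0.15 (adjusted p = 0.0144) in wild-type cells; the call of Vegfd was lost (adjusted p = 0.0579) without replicate 1 of the treated cells. Tgfb1 rose in knockout cells with 0.58 ± 0.16 (adjusted p = 0.0322), a call lost at an adjusted p from 0.0574 to 0.111 without replicate 1 or 2 of the untreated or any 1 of the treated knockout libraries. Beside the 9.38% and 12.8% of all genes, the lists of receptors, proteases and growth factors are too short for their counts to be read.

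Of 6 tested neighbours of Sema3a, Sema3c and Sema3d on chromosome 5, 1 was higher and 1 was lower in knockout cells with IFN. From 1000000 bases before the first to 1000000 bases after the last of the 4 semaphorin genes, 6 other genes were tested, and their median log2 fold change in knockout cells was 0.10 without IFN and 0.15 with it. Gm43719, an annotated transcript that starts after the end of Sema3a on the same strand, was higher by 1.53 ± 0.33 without IFN and by 1.44 ± 0.34 with it (adjusted p = 0.0117). That call was lost (adjusted p = 0.0524) without replicate 3 of the knockout cells with IFN. Cacna2d1, a calcium channel subunit between Sema3e and Sema3c, differed by -1.77 ± 0.21 and -1.42 ± 0.20 (adjusted p = 0.000392 with IFN). The other 4 did not pass with IFN. Of these, Gm10481, Gm10108 and Gm8991 are processed pseudogenes. Gnai1 had a mean of 0.240 CPM and gave 1.11 ± 0.73 (adjusted p = 0.365) with IFN. The medians over the 6 therefore say little about protein-coding neighbours. Over all 1170 tested genes of chromosome 5 the median was 0.02 in both comparisons.

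Chromosome 9, which carries Sema7a, Sema3b and Plxnb1, stood apart as a whole. The median log2 fold change of its 914 tested genes in knockout cells was -0.27 without IFN and -0.25 with it, and with IFN 21.6% of them fell and 0.328% rose, against 10.6% and 5.11% of all genes. Chromosome 16, with the untested Sema5b, was similar, with medians of -0.29 and -0.28. With IFN the medians of the other chromosomes that carry a tested member lay between -0.08 and 0.11. Less the median of its chromosome, the value with IFN was -0.71 for Sema7a, -0.14 for Sema3b and -0.02 for Plxnb1, and the part of the chromosome in the calls of Sema7a and Sema3b was not tested. For Nrp1, on chromosome 8, it was -0.68, and for Sema3a, Sema3c and Sema3d it was 1.81, 1.06 and 2.68.

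**Figure D5:**
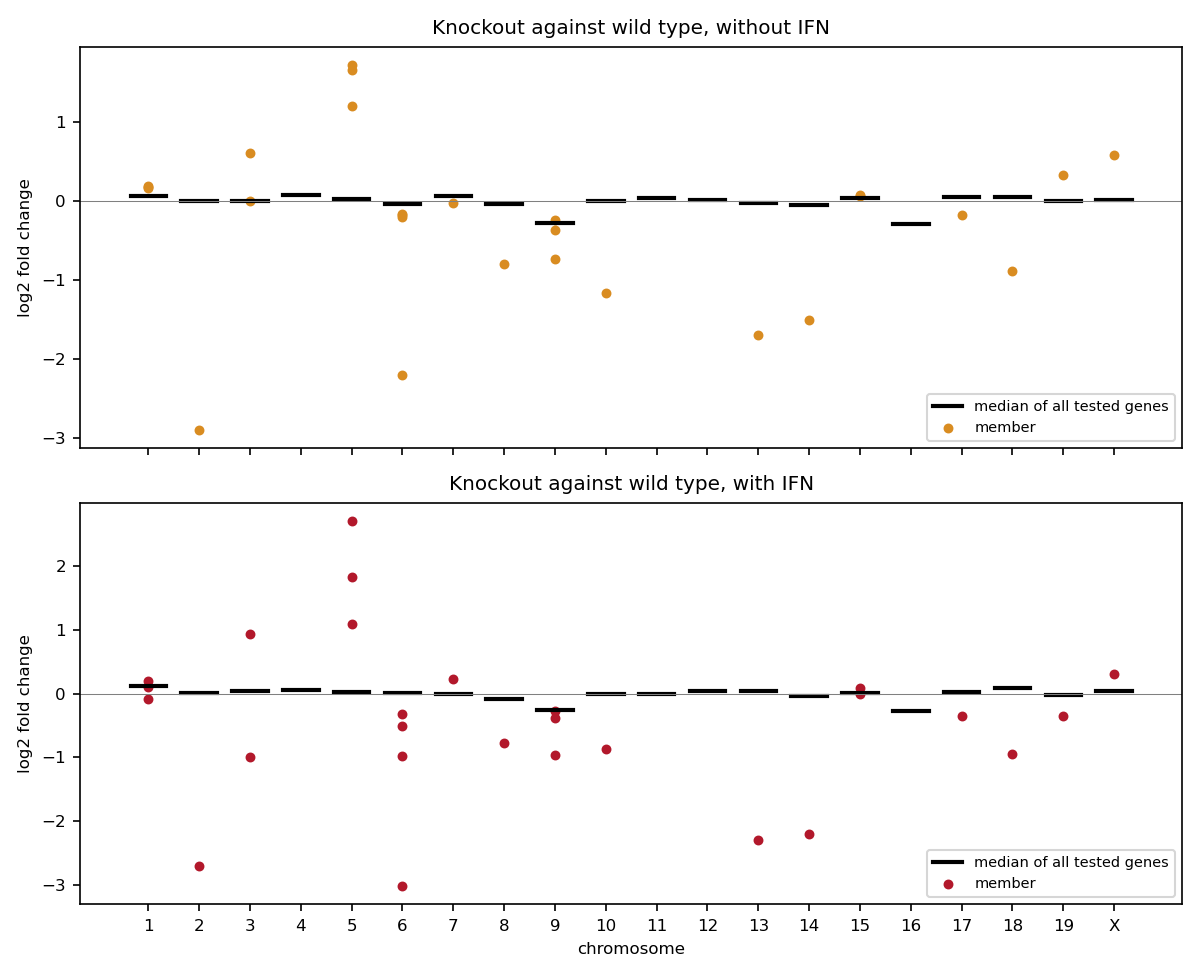
Log2 fold change of knockout against wild-type cells without IFN (top) and with IFN (bottom) for each tested member (points), placed by chromosome, with the median of all tested genes of that chromosome as a black bar. The bars of chromosomes 9 and 16 lie between -0.29 and -0.25, and the 3 points above 1 in each panel, all on chromosome 5, are Sema3a, Sema3c and Sema3d.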

How the data were processed

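RNA from 12 libraries of MC38 cells was sequenced after poly-A selection, per the labels' protocols. The authors deposited whole-number counts per gene, with no normalization, and TPM per gene, which divides by transcript length and has a common sum in every library. Per the submitters' processing notes, Trimmomatic 0.36, FastQC 0.11.2 and HISAT2 2.1.0 were used. Neither label nor file names the counting tool or its strand setting.

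In the deposited counts, genes at a small even count outnumbered those at the neighbouring odd counts by 1.19 to 1.89 times, and whether each count stands for 1 fragment is not known, which bears on the small counts printed. Members were matched by gene symbol. Genes were kept by edgeR's filterByExpr (minimum count 10, minimum total 15), which left 16676. Counts were scaled by TMM and fitted with edgeR 4.0.16 (R 4.3.3) as 4 group means over all 12 libraries, with robust quasi-likelihood tests on 8 residual degrees of freedom. P-values were adjusted by Benjamini-Hochberg over all genes in each comparison, with a threshold of 0.05. Log2 fold changes carry the SE taken from the F statistic, intervals are 95% intervals, and CPM are TMM-scaled. Library totals of 31752685 to 45721356 limit the precision of scarce members, for which counts are given. The scripts were tested on simulated data.

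Alternatives were DESeq2 1.42.0, limma 3.58.1 on log2(TPM + 1) and log2(TPM + 0.1), other scalings, filters and sample sets, a replicate block, each library left out, and grouping by the characteristics. A filter on a mean of at least 1 CPM was chosen after seeing the data. Every member is accounted for, and values in each library are given for members that passed in any comparison or were the most abundant of their class. From each of 4 lists of pathway genes, those named come from the 4 with the smallest p between genotypes with IFN and the 4 with the smallest p for IFN, with any gene over 100 TPM that passed between genotypes at both treatments. The members and all lists were chosen with earlier results of these data known. The results of 1 marker list and 2 promoter motifs are not reported here.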

Additional observations from a re-analysis of the deposited data

How the results depend on the processing

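Counts of members past the threshold stayed within 1.5 times the reported count except as follows. For IFN in wild-type cells (8) the count was 5 when only the compared libraries were fitted and 4 with limma on unfiltered log2(TPM + 1). For knockout with IFN (16) it was 8 with the latter. For the interaction (0) it was 1 without untreated wild-type replicate 2 and untreated knockout replicate 1. Leaving out 1 library at a time gave 4 to 10 for IFN in wild-type cells, 5 to 7 for IFN in knockout cells, 8 to 11 for knockout without IFN, 11 to 18 for knockout with IFN and 0 to 0 for the interaction. Shares of all genes are not given for these fits, so the counts show only how the member calls varied. Of 39 member calls in the 5 comparisons, 16 were kept in every alternative except the grouping by the characteristics, 23 were lost in at least 1 and 0 reversed. The cause of the losses was not tested. The 39 include 9 of the knockout comparison without IFN, which is only a description. They also include the calls said above not to be read as support, so nothing is read from the 16. With the replicate number as a block the counts were 8, 6, 9, 14 and 0, the calls of Sema4d and Sema6a for knockout with IFN being lost. Same-numbered libraries correlated at -0.16 to 0.11 over 18 pairs, 1 of them over 0.1, and 4 of 12 libraries correlated best with their own number. These values show no pairing by number, but with 3 libraries per group they cannot exclude it.

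Grouping by the characteristics exchanges the treated wild-type group with the untreated knockout group, so by construction each comparison takes the libraries of another, and the pathway genes likewise. The count was then 16 for IFN in knockout cells and 6 for knockout with IFN. Log2 fold changes that turned were, for IFN in wild-type cells, Plxna2 0.17, Plxna4 -0.17, Sema3a 1.20, Sema4b -0.029 and Sema7a -0.74. For IFN in knockout cells they were Plxna2 0.10, Sema3c 1.08 and Sema7a -0.96. For knockout without IFN they were Nrp1 0.029, Sema3a -0.75, Sema3d -1.13, Sema4f 0.13, Sema6c -0.46 and Sema7a 1.53. For knockout with IFN they were Nrp1 0.060, Plxna1 0.13, Plxna4 0.16, Sema3a -0.12, Sema3c -0.47, Sema3d -0.14, Sema6a 0.21, Sema6c -0.12, Sema6d 2.36 and Sema7a 1.30. Depth limits the members under 1 CPM.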
